A study of Mus musculus with 12 samples.

Results

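The 10 genes described here encode secreted antagonists of Wnt signalling, together with Axin2, and were chosen by symbol from the 55487 genes counted in each library. Of these, 9 are secreted proteins: Sfrp1, Sfrp2, Sfrp4, Sfrp5, Frzb, Wif1, Dkk1, Dkk2 and Dkk3. Axin2 is an intracellular scaffold and was included as a transcriptional readout of the pathway. All 10 were found in the count tables. Of these, 7 passed a filter on low counts over all 12 libraries, and Sfrp5, Dkk1 and Wif1 did not. Wif1 passed it in some comparisons, and Dkk1 in some fits to fewer libraries.

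The cells were primary mouse embryonic fibroblasts (MEF), a culture of connective tissue cells grown from whole embryos, here E13.5 embryos of genotype HTTfl/fl, so every group carried floxed alleles of huntingtin. Deletion was made with the lentivirus LV-Cre-GFP, which encodes Cre recombinase, and controls received an H2B-eGFP lentivirus, both harvested 7 days after transduction. Ribosomes were purified from each suspension, and 1 part in 15 of it was kept for total RNA, which gave 4 groups of 3 libraries: total RNA of control and of HTT-deleted cells, and ribosome-associated RNA of control and of HTT-deleted cells. By the labels a replicate is a separate primary culture or a separate passage, and p-values measure the spread among those.

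Wnt ligands are secreted proteins that bind Frizzled receptors and the co-receptors Lrp5 and Lrp6, which stabilises beta-catenin and switches on genes such as Axin2. Secreted Frizzled-related proteins (Sfrp1, Sfrp2, Sfrp4, Sfrp5 and Frzb, also called Sfrp3) and Wif1 bind Wnt ligands outside the cell, whereas Dkk1 and Dkk2 occupy Lrp5 and Lrp6. In embryonic mesenchyme these factors are known for shaping limb, cartilage and skeletal development, and Axin2 itself promotes the breakdown of beta-catenin.

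The 250 bases upstream of the annotated start are shown for Sfrp2, the most abundant member in these cells, and for Axin2, the pathway readout. The sequences are from RefSeq (GRCm38.p6), both lie on the plus strand, at chr3:83766071-83766320 for Sfrp2 and chr11:108920099-108920348 for Axin2, and capitals would mark a match to a T-cell factor motif.
Sfrp2: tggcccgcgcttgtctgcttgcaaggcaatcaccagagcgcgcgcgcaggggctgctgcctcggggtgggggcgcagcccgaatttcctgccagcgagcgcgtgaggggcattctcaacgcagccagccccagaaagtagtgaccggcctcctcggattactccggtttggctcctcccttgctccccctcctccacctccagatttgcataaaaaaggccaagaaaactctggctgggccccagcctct
Axin2: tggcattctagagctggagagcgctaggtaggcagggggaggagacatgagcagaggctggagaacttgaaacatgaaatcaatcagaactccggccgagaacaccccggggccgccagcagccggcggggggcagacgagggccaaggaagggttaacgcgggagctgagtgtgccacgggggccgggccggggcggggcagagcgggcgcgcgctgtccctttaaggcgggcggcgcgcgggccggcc
Neither window holds CTTTG followed by AA, by AT, by TA or by TT on either strand, the 4 forms searched for factors of the Tcf and Lef family, which bring beta-catenin to DNA. Of all 32851 RefSeq windows of that length, 14.8% hold at least 1 of these 7-base forms. Among the 7 members with a window in the table, Dkk1 had 2 matches, ending in AA and in TT, and the others had none. G and C made up 63.6% of the Sfrp2 window and 69.2% of the Axin2 window, against a median of 52.4% over all windows. These are matches of letters within one window and no measure of binding.

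Gene counts per library ran from 16789356 to 30571501. Replicates differed beyond sampling noise in every group, with a chi-square per degree of freedom of 35.1 to 178. Total HTT-deleted replicate 1 stood apart: it differed from the other libraries of its group by 178 and 168 on that measure, while those differed from each other by 36.9. Htt was at 26.4, 23.1 and 16.6% of its same-numbered control in total RNA and at 56.7, 25.1 and 12.4% in ribosome-associated RNA (replicates 1, 2 and 3), and the groups did not overlap in either fraction. All 12 fibroblast markers were above 1 CPM in some library, with a summed level of 28137 to 53897 CPM in total RNA. Macrophage markers were present in every group (18 of 18), at 800.1 to 3287 CPM summed in total control and 1833 to 7615 CPM in total HTT-deleted cells. Of 8 endothelial markers, 4 stayed under 1 CPM in every library (Pecam1, Cdh5, Tie1 and Esam), while Tek reached 18.5, Vwf 14.0, Kdr 5.97 and Emcn 2.23 CPM. So did 4 of 5 epithelial markers, all but Cdh1 (up to 2.20 CPM), and 5 of 6 muscle markers, all but Des (up to 20.1 CPM), with Myod1 at 0 in all 12 libraries.

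Levels are given as CPM, gene counts scaled to library size, and between genes only as CPM per kb of exon. Per kb, Sfrp2, Dkk3, Sfrp1 and Dkk2 were abundant, Sfrp4, Frzb and Axin2 were low to moderate, and Wif1, Dkk1 and Sfrp5 were barely detected. In total RNA of control cells, Sfrp2 averaged 299 ± 154 CPM per kb, Dkk3 146 ± 30.4, Sfrp1 105 ± 51.8 and Dkk2 47.4 ± 6.65 (SD, n = 3). Sfrp4 averaged 8.41 ± 4.75, Frzb 3.64 ± 0.928 and Axin2 1.16 ± 0.28 CPM per kb (SD, n = 3). The order of these 7 means was the same in all 4 groups. Set among 15571 genes that passed the filter, Sfrp2 lay above 99.3% in total control cells, Dkk3 above 98.4%, Sfrp1 above 97.7% and Dkk2 above 94.3%, whereas Frzb lay above 45.5% and Axin2 above 25.9%.

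**Figure D1:**
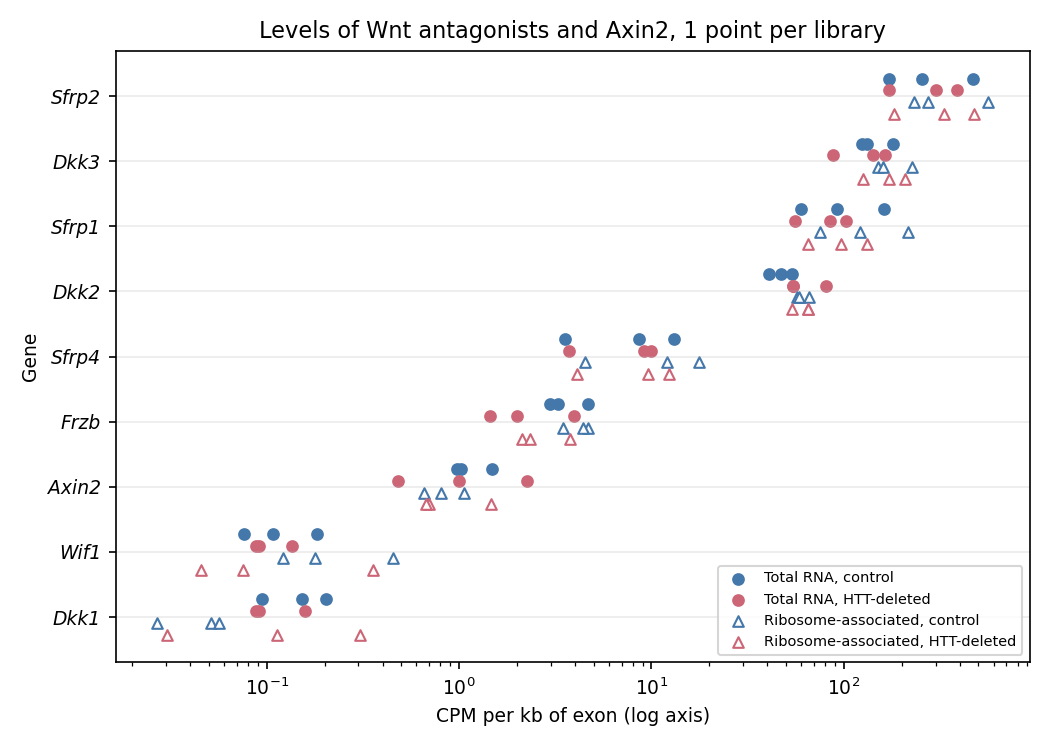
Level of 9 members in CPM per kb of exon (log axis), 1 point per library, with total RNA as filled circles and ribosome-associated RNA as open triangles, controls in blue and HTT-deleted cells in red. Sfrp5 is not drawn, being at 0 in 10 of 12 libraries. Sfrp2 is at 171 CPM per kb or above in every library and Axin2 at 2.25 or below, and points of different replicates lie further apart for Sfrp4 than for Dkk2.

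Neighbours in this order were often not separable from the spread of their libraries. In total control cells the ranges of Sfrp2 (172 to 471 CPM per kb) and Dkk3 (125 to 181) overlapped, as did those of Dkk3 and Sfrp1 and those of Sfrp4 and Frzb. Sfrp1, from 60.1 CPM per kb, lay above Dkk2, up to 54.1, and Frzb, from 2.97, lay above Axin2, up to 1.48. Dkk2 lay above Sfrp4 in all 4 groups. Sfrp2 made up 49.0% of the summed per-kb level of the 10 members in total control cells and 50.0% in total HTT-deleted cells, and 47.5 and 49.2% in the ribosome-associated groups.

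Sfrp1 (ENSMUSG00000031548, chromosome 8, 23411502 to 23449632, plus strand, GRCm38) is a secreted Frizzled-related protein. In total RNA its level was 404, 706 and 263 CPM in control replicates 1, 2 and 3 and 369, 448 and 245 CPM in HTT-deleted ones. On ribosomes it was 528, 944 and 329 CPM in controls and 422, 577 and 286 CPM in HTT-deleted cells. Replicate 2 was highest and replicate 3 lowest in every group, and control and HTT-deleted ranges overlapped in both fractions.

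Sfrp2 (ENSMUSG00000027996, chromosome 3, 83766321 to 83774316, plus strand) lies opposite an antisense gene, Gm26771, and since the strand setting of the counting is not given here, reads of the pair may not be told apart. In total RNA it measured 370.2, 1014 and 549 CPM in controls and 368, 837 and 646 CPM in HTT-deleted cells. Its ribosome-associated level was 497, 1212 and 590.3 CPM in controls and 390.2, 1027 and 712 CPM in HTT-deleted cells. Replicate 1 was lowest and replicate 2 highest in all 4 groups, whether or not HTT was deleted.

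Sfrp4 (ENSMUSG00000021319, chromosome 13, 19623104 to 19632994, plus strand) is a relative known in bone and fibroblasts. Its total RNA level was 36.2, 54.4 and 14.8 CPM in controls and 41.3, 38.2 and 15.5 CPM in HTT-deleted cells. In ribosome-associated RNA it was 50.1, 73.4 and 18.8 CPM in controls and 39.9, 51.8 and 17.1 CPM in HTT-deleted cells. Replicate 3 stood lowest in each group, and the highest library of a group was 2.66 to 3.91 times its lowest.

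Frzb (ENSMUSG00000027004, chromosome 2, 80411970 to 80447625, minus strand) is known as a product of cartilage cells. In total RNA it measured 9.60, 10.5 and 15.2 CPM in controls and 6.47, 4.69 and 12.8 CPM in HTT-deleted cells. On ribosomes it was 11.3, 15.1 and 14.4 CPM in controls and 6.84, 7.61 and 12.2 CPM in HTT-deleted cells. Every HTT-deleted library lay below its same-numbered control in both fractions, and in ribosome-associated RNA the groups overlapped only because HTT-deleted replicate 3 exceeded control replicate 1.

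Dkk2 (ENSMUSG00000028031, chromosome 3, 132085292 to 132180304, plus strand) is a ligand of Lrp5 and Lrp6. Its total RNA level was 151, 175 and 200.4 CPM in controls and 299, 200.8 and 203 CPM in HTT-deleted cells. Its ribosome-associated level was 212, 217 and 245 CPM in controls and 198, 240.2 and 241 CPM in HTT-deleted cells. The total RNA groups did not overlap, although control replicate 3 (200.4) and HTT-deleted replicate 2 (200.8) lay close together, and the high value of 299 CPM came from the library that stood apart.

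Dkk3 (ENSMUSG00000030772, chromosome 7, 112116017 to 112159057, minus strand) belongs to the Dickkopf family by sequence, and its part in Wnt signalling is less settled. In total RNA it measured 419, 607 and 445 CPM in controls and 294, 551 and 474 CPM in HTT-deleted cells. In ribosome-associated RNA it was 505, 758 and 535 CPM in controls and 424, 700.3 and 578 CPM in HTT-deleted cells. Replicate 2 was highest in every group, and the ranges of control and HTT-deleted cells overlapped.

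Axin2 (ENSMUSG00000000142, chromosome 11, 108920349 to 108950783, plus strand) also lies opposite an antisense gene, Gm11670. Its total RNA level was 5.67, 8.16 and 5.35 CPM in controls and 2.65, 12.4 and 5.48 CPM in HTT-deleted cells. On ribosomes it was 3.60, 5.83 and 4.45 CPM in controls and 3.85, 8.06 and 3.72 CPM in HTT-deleted cells. The highest and the lowest of all 12 values were both in total HTT-deleted cells, so that group enclosed every other.

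Wif1, Dkk1 and Sfrp5 were near the limit of detection, where 3 counts correspond to 0.0981 to 0.186 CPM depending on the library. Wif1 (ENSMUSG00000020218, chromosome 10, 121033960 to 121100650, plus strand) had 8, 9 and 5 counts in total control, 4, 6 and 4 in total HTT-deleted, 7, 24 and 9 in ribosome-associated control and 4, 21 and 3 in ribosome-associated HTT-deleted cells. Dkk1 (ENSMUSG00000024868, chromosome 19, 30545863 to 30549665, minus strand) had 7, 10 and 10 counts in total control, 4, 7 and 4 in total HTT-deleted, 2, 3 and 2 in ribosome-associated control and 6, 18 and 2 in ribosome-associated HTT-deleted cells. Sfrp5 (ENSMUSG00000018822, chromosome 19, 42197971 to 42202252, minus strand) had 2 counts in all and was at 0 in 10 of 12 libraries. Replicate 2 held the most Wif1 in each group and 18 of the 26 Dkk1 counts of ribosome-associated HTT-deleted cells.

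Several members varied with the replicate number, which stands for a culture or passage. Within a group the highest library was 1.83 to 2.87 times the lowest for Sfrp1 and 2.27 to 2.74 times for Sfrp2, but 1.15 to 1.49 times for Dkk2. A test of the replicate number beside the deletion, chosen after seeing the data, called 6 of 8 tested members in ribosome-associated RNA, where 25.3% of all genes were called (quasi-likelihood F test of edgeR, with p adjusted by Benjamini-Hochberg and a threshold of 0.05). These were Sfrp4 (adjusted p = 3.5e-09), Sfrp1 (7.5e-07), Sfrp2 (2.6e-06), Dkk3 (5.6e-04), Axin2 (0.00818) and Wif1 (0.00819) in edgeR's test. Frzb (adjusted p = 0.0535) and Dkk2 (adjusted p = 0.193) did not pass edgeR's test.

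In total RNA edgeR's test called 0 of 7 members and 0% of genes for the replicate number with all 3 pairs, with 4 members at an unadjusted p under 0.05. No other tool was run for this comparison. Without the replicate 1 pair, which holds the library that stood apart, edgeR's test called 6 of 7, all but Dkk2, against 20.4% of genes. Without that pair Frzb was called in total RNA (adjusted p = 0.0124 in edgeR's test) and had an adjusted p of 0.305 in ribosome-associated RNA, where 21.2% of genes were called.

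**Figure D2:**
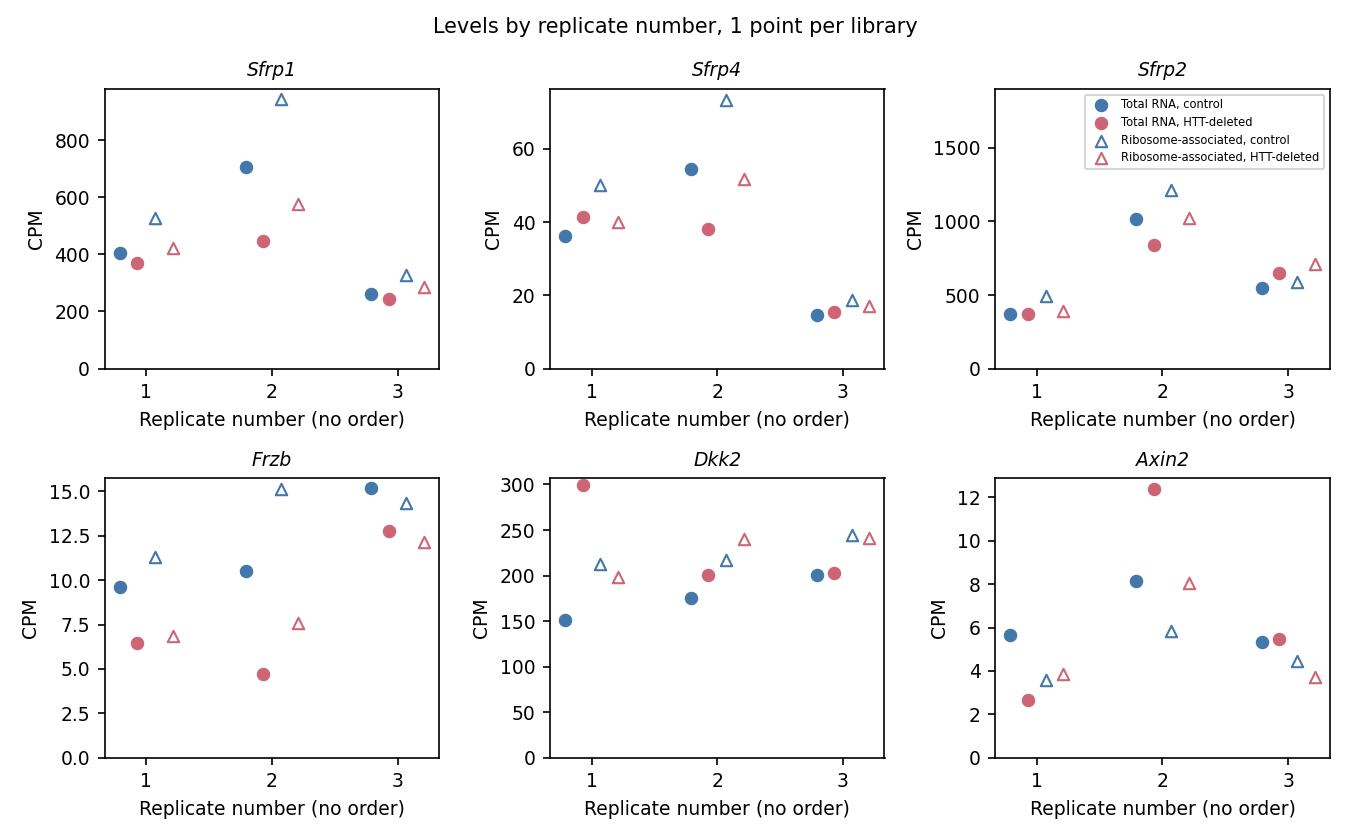
Level of 6 members in CPM by replicate number (replicates have no order), 1 point per library, with total RNA as filled circles, ribosome-associated RNA as open triangles, controls in blue and HTT-deleted cells in red. Sfrp1 and Sfrp4 are lowest in replicate 3 in all 4 groups, while for Frzb the red points lie below the blue ones of the same replicate and fraction.

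The comparison of HTT-deleted with control cells asks how the loss of huntingtin alters the transcriptome. The cells also received different lentiviruses, LV-Cre-GFP and H2B-eGFP, so effects of huntingtin loss, of Cre and of the vector cannot be told apart. In total RNA, Frzb and Sfrp1 lay below the control in each of the 3 pairs and Dkk2 was higher in all 3, but none of the members passed the test. Frzb stood at 67.4, 44.5 and 83.9% of its same-numbered control, with a log2 fold change of -0.54 (SE 0.39) in the main test, which ignored the replicate number. Dkk2 stood at 198, 115 and 101% of its control, a log2 fold change of 0.46 (SE 0.23). Sfrp1 was at -0.34 (SE 0.41), Dkk3 at -0.14 (SE 0.27), Sfrp4 at -0.11 (SE 0.55), Sfrp2 at -0.0422 (SE 0.44) and Axin2 at 0.12 (SE 0.53).

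With Benjamini-Hochberg adjustment, the edgeR test called 0 of 7 members and 0% of 14759 genes, with 0 members and 44 genes at an unadjusted p under 0.05, while DESeq2 called 3 genes and limma voom 0, no member among them. Htt itself, at -2.16 (SE 0.24), was not called by this edgeR test (adjusted p = 0.812). A member that was not called is therefore not shown to be unchanged. The median log2 fold change was -0.11 over the 7 members and 0.0129 over all genes. Among all genes, 13.2% lay below 0 in all 3 pairs, as Frzb and Sfrp1 did, and 9.99% lay above 0 in all 3, as Dkk2 did. For 1.61% of genes all HTT-deleted libraries lay above the controls, as for Dkk2, while 2.6% showed the reverse, as no tested member did. With the replicate number as a block, Frzb was at -0.62 (SE 0.24), with an unadjusted p of 0.0443 and an adjusted p of 0.902 in edgeR's test. In pairs 2 and 3 alone, where 0.629% of genes and no member were called, Frzb was at -0.62 (SE 0.20), whereas Dkk2 was at 0.11 (SE 0.068), so that most of its difference came from replicate 1. Macrophage markers lay above 0 in these libraries for 18 of 18 genes, with a median of 1.05, and their part in the members' values was not tested. In such cultures, fewer cells of a type and less RNA per cell cannot be told apart.

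In ribosome-associated RNA, no member passed the main test, which ignored the replicate number. In the alternative fit that compared same-numbered cultures, Frzb and Sfrp1 were called lower with the deletion. Sfrp4 was lower in every pair without passing. In that fit Sfrp2, Dkk2, Dkk3 and Axin2 did not pass, with estimates between -0.10 and 0.12 on the log2 scale. Frzb stood at 60.6, 50.3 and 84.7% of its control in replicates 1, 2 and 3, Sfrp1 at 80.0, 61.1 and 87.0% and Sfrp4 at 79.7, 70.5 and 90.8%. With the replicate number as a block, Frzb was at -0.63 (SE 0.14, adjusted p = 0.0287) and Sfrp1 at -0.41 (SE 0.097, adjusted p = 0.0377) (edgeR, Benjamini-Hochberg). Sfrp4 was at -0.33 (SE 0.092, adjusted p = 0.0867) and Wif1 at -0.73 (SE 0.48, adjusted p = 0.671) in the same edgeR test. Sfrp2 was at -0.10 (SE 0.11), Dkk3 at -0.0787 (SE 0.09), Dkk2 at 0.0142 (SE 0.081) and Axin2 at 0.12 (SE 0.18).

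That blocked test called 2 of 8 members, both lower, where 1.69% of all genes were called, 1.46% higher and 0.233% lower. Without the block edgeR called 0 of 8 members and 0% of 14588 genes, with Frzb as the member at an unadjusted p under 0.05 (-0.61, SE 0.24, adjusted p = 1) among 110 genes, while DESeq2 called 1 gene and limma voom 0, neither a member. Htt was at -1.89 (SE 0.58, adjusted p = 0.537) with the block and at -1.78 (SE 0.47) without it, and edgeR's test called it in neither. The median over the 8 members was -0.24 without the block and -0.21 with it, against -0.00103 and 0.000777 over all genes. Frzb, Sfrp1, Sfrp4 and Wif1, 4 of 8, lay below 0 in all 3 pairs, as did 15.6% of genes.

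Whether these members passed depended on which pairs entered, while their estimates stayed below 0. In pairs 2 and 3 with the block, Frzb was at -0.59 (adjusted p = 0.346) and Sfrp1 at -0.45 (adjusted p = 0.249) in edgeR's test, which then called 0.0944% of genes. In pairs 1 and 3, chosen after seeing the data, edgeR called 0 of 7 members, against 1.24% of genes. Frzb was then at -0.45 (adjusted p = 0.259) and Sfrp1 at -0.26 (adjusted p = 0.423) in edgeR's test. In pairs 1 and 2, also chosen after seeing the data, edgeR called 3 of 8 members, against 3.96% of genes: Sfrp1 (-0.51), Sfrp4 (-0.41) and Frzb (-0.86). The replicate 2 pair had the most negative difference of the 3 for Frzb, Sfrp1 and Sfrp4. Without the block, leaving out ribosome-associated control replicate 2 put Sfrp1 at 0.0032 and Sfrp4 at 0.0842, while Frzb ran from -0.91 to -0.46 with each library left out.

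Markers of other cells moved in the same ribosome-associated libraries. Macrophage markers rose for 9 of 18 genes with the block and lay above 0 for 18 of 18 (median 0.80), with summed levels of 1206 to 4962 CPM in controls and 2831 to 8541 CPM in HTT-deleted cells. Chondrocyte markers summed to 59.4 to 143 CPM in controls and 46.0 to 147 CPM in HTT-deleted cells, with 4 of 8 above 0 and 0 called. Osteoblast markers summed to 45.7 to 117 and 32.9 to 98.7 CPM, with 4 of 4 tested below 0 and 1 called lower. Mesothelial markers summed to 7.94 to 47.6 and 5.01 to 23.7 CPM, with 5 of 6 tested below 0 and 1 called lower. Fibroblast markers were above 0 for 2 of 12 (median -0.0776, 0 called), neural and glial markers for 1 of 7 (median -0.28, 0 called), and endothelial markers for 2 of 4 tested (median 0.0132, 1 called higher). The 1 muscle marker tested was below 0 and the 1 epithelial marker above 0, neither called. The part of these cells in the lower values of Frzb and Sfrp1 was not tested.

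The authors' deposited table, which the file name ties to a correction for 2 factors of unwanted variation, listed 9 of the 10 members, without Sfrp5. For ribosome-associated RNA, the authors' deposited table gave log2 fold changes of -0.63 for Frzb (false discovery rate 9.4e-04), -0.41 for Sfrp1 (0.00393) and -0.33 for Sfrp4 (0.0296), where 4.21% of its genes were under 0.05 and 1.09% were so and lower. In the authors' deposited table Dkk1 was at 1.71 in that fraction with a rate of 0.0519. For total RNA the authors' deposited table gave -0.63 for Frzb (0.0928) and 0.42 for Dkk2 (0.0958), and 0 of 9 members were under 0.05, against 4.97% of its genes.

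Dkk1 counts on ribosomes were 26 in HTT-deleted and 7 in control cells, a depth-scaled ratio of 3.48 (95% interval 1.47 to 9.50). Without HTT-deleted replicate 2, which held 18 of the 26, the counts were 8 and 7 and the ratio 1.60 (95% interval 0.507 to 5.18). In total RNA the counts were 15 and 27, a ratio of 0.783 (95% interval 0.387 to 1.53). These intervals are exact and cover counting error only, and the ribosome-associated HTT-deleted and control values overlapped, replicate 3 having 2 counts in each. Wif1 counts on ribosomes were 28 and 40, a ratio of 0.656 (95% interval 0.390 to 1.09), which became 0.245 without HTT-deleted replicate 2 and 1.12 without control replicate 2.

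**Figure D3:**
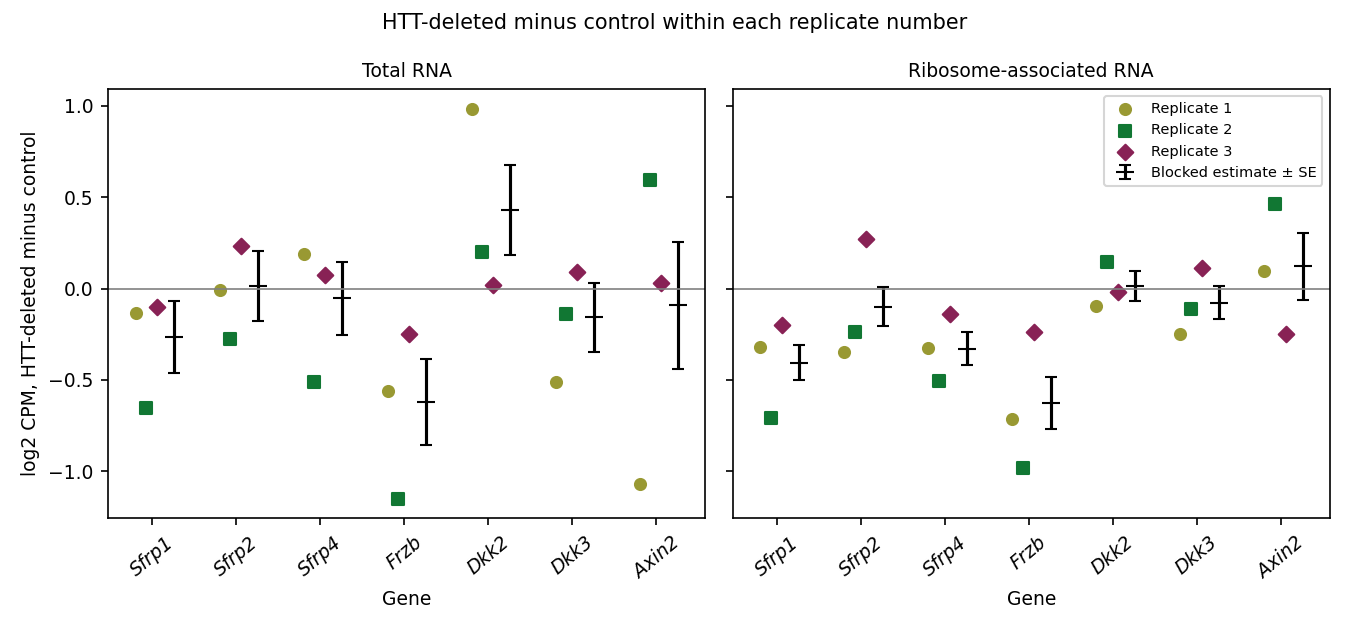
Difference in log2 CPM between the HTT-deleted and the control library of each replicate number for 7 members, in total RNA (left) and ribosome-associated RNA (right), with the estimate of the fit with a replicate block ± SE in black. Frzb and Sfrp1 lie below 0 in all 3 pairs of both panels, and in total RNA replicate 1 sets Dkk2 at 0.99 and Axin2 at -1.07, away from the other pairs.

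The interaction term asks whether the deletion changed how RNA was divided between ribosomes and the total pool. None of the members passed that test: edgeR called 0 of 7 members and 0% of 15574 genes, with 0 members and 85 genes at an unadjusted p under 0.05, and DESeq2 and limma voom called 0 genes. Frzb was at -0.0531 (SE 0.50) and Sfrp1 at -0.12 (SE 0.62), and with the 6 cultures as a block at -3.4e-04 (SE 0.37) and -0.11 (SE 0.13). Dkk2 had the lowest p of the members (-0.41, SE 0.24, adjusted p = 1 in edgeR's test), and in pairs 2 and 3 it was at -0.0508 (SE 0.073). Dkk1, with at most 18 counts in a library, passed the filter in those pairs. It was at 2.40 (SE 1.12, unadjusted p = 0.0358, adjusted p = 0.941 in edgeR's test). Passing with the block in ribosome-associated RNA and not in total RNA is therefore not shown to be a difference between the fractions for Frzb or Sfrp1.

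The comparison of fractions asks which transcripts were over- or under-represented on ribosomes. In control cells, Sfrp1, Sfrp2, Sfrp4, Dkk2 and Dkk3 were higher and Axin2 lower in ribosome-associated than in total RNA of the same suspension. Within replicates 1, 2 and 3 the ribosome-associated level was 131, 134 and 125% of the total level for Sfrp1 and 138, 135 and 127% for Sfrp4. It was 141, 124 and 122% for Dkk2, whose groups did not overlap, a pattern that 20.6% of genes showed in the higher direction. For Dkk3 it was 121, 125 and 120.1%, and for Sfrp2 134, 119 and 108%. Axin2 stood at 63.5, 71.4 and 83.1%.

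With the block, edgeR called Sfrp4 (0.41, SE 0.079, adjusted p = 6.9e-04), Sfrp1 (0.37, SE 0.073, adjusted p = 8.1e-04) and Dkk2 (0.36, SE 0.073, adjusted p = 0.00104) as higher (Benjamini-Hochberg). It also called Dkk3 (0.28, SE 0.072, adjusted p = 0.00571) and Sfrp2 (0.25, SE 0.08, adjusted p = 0.0173) as higher and Axin2 (-0.47, SE 0.15, adjusted p = 0.0203) as lower in edgeR's test. Frzb (0.20, SE 0.12, adjusted p = 0.177) and Wif1 (0.95, SE 0.47, adjusted p = 0.105) did not pass edgeR's test. Thus 6 of 8 members were called where 50.2% of all genes were, and 5 of 8 were called higher against 24.3%. Without the block edgeR called 0 of 8 members, against 25% of genes, with Dkk2 alone at an unadjusted p under 0.05 (adjusted p = 0.0662 in edgeR's test). DESeq2 called Dkk2 alone, against 28.8% of genes, and limma voom called 0 of 8, against 25.1%.

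In HTT-deleted cells edgeR called 0 of 7 members without the block, against 0.896% of genes, and 0 of 7 with it, against 0.663%. One member, Dkk3 (0.38, SE 0.14), had an unadjusted p under 0.05 with the block in edgeR's test and none did without it. DESeq2 and limma voom called 0 of 7, against 5.92% and 0.943% of genes. In replicate 1, which includes the library that stood apart, the ribosome-associated level was 66.3% of the total level for Dkk2 and 145% for Axin2, against 119.6 and 119.1% and 65.1 and 67.9% in replicates 2 and 3. In pairs 2 and 3 with the block, edgeR called 6 of 7 members, against 55.6% of genes: Sfrp1 (0.29), Sfrp2 (0.21), Sfrp4 (0.32), Dkk2 (0.25) and Dkk3 (0.31) as higher and Axin2 (-0.60) as lower. These are the same 6 members that the blocked test called in control cells. Leaving out total HTT-deleted replicate 1 alone, without the block, still gave 0 of 7 members called, against 19.9% of genes. Pairs 2 and 3 were fitted only with the block, so the parts of the block and of the left-out libraries cannot be told apart.

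**Figure D4:**
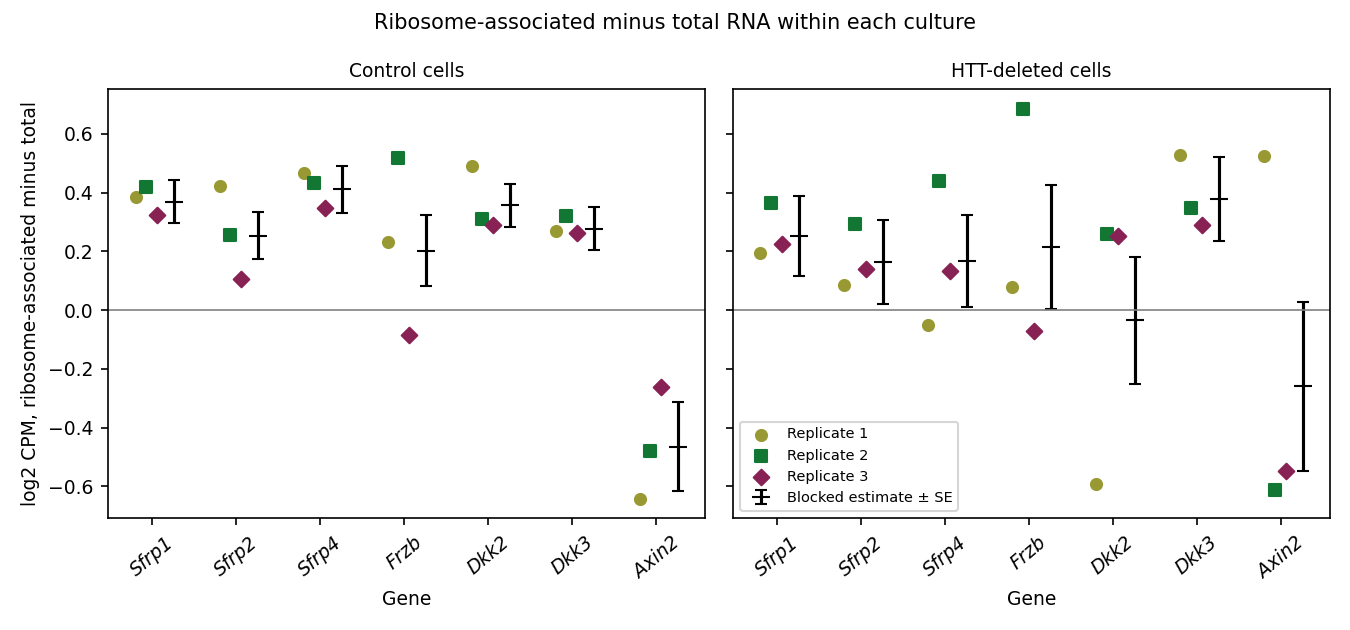
Difference in log2 CPM between ribosome-associated and total RNA of the same culture for 7 members, in control cells (left) and HTT-deleted cells (right), with the estimate of the fit with a replicate block ± SE in black. In control cells Axin2 lies below 0 in all 3 cultures, and in HTT-deleted cells replicate 1 stands at -0.59 for Dkk2 and 0.52 for Axin2, opposite to the other cultures.

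By its counts, Dkk1 ran the other way from the abundant antagonists in control cells, but it did not pass the filter and was not tested there. It had 7 counts on ribosomes and 27 in total RNA, a ratio of 0.294 (95% interval 0.108 to 0.693, exact, counting error only). Its groups did not overlap, a pattern that 23.5% of tested genes showed in the lower direction. The ribosome-associated control libraries held only 2 to 3 counts each. Without ribosome-associated control replicate 3 the Dkk1 ratio became 0.380 (95% interval 0.114 to 1.001). Wif1 had 40 and 22 counts, a ratio of 2.07 (95% interval 1.20 to 3.65), which became 1.21 (95% interval 0.595 to 2.42) without ribosome-associated control replicate 2.

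Other genes of the pathway were read from 6 lists of 95 distinct genes, with Notum, Rnf43, Znrf3 and Lgr5 each on more than 1 list. Among other secreted antagonists, Igfbp4, which also binds insulin-like growth factors, was the most abundant in total control cells (565 CPM, or 128 ± 48.6 CPM per kb, SD, n = 3). The best represented ligands were Wnt16 (21.2 ± 1.33 CPM per kb) and Wnt5a (20.3 ± 13.2 CPM per kb), a ligand of beta-catenin-independent signalling, and 8 of 19 ligands reached 1 CPM in a group. The best represented receptors were Ptk7 (59.7 ± 4.73 CPM per kb) and Fzd2 (57.3 ± 5.51 CPM per kb), and 15 of 16 reached 1 CPM in a group.

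No gene of these lists passed the test for the deletion. In total RNA, edgeR called 0 of 3 other antagonists, 0 of 9 ligands, 0 of 15 receptors, 0 of 15 secretion and surface modulators, 0 of 22 intracellular transducers and 0 of 11 target genes of beta-catenin. The receptors' median was -0.17 on the log2 scale with 12 of 15 below 0, and targets -0.0687 with 10 of 11 below 0. Over all genes the median was 0.0129 and 48.0% lay below 0. The smallest p of each list belonged to Trabd2b (0.36, SE 0.30), Wnt6 (0.62, SE 0.47), Fzd7 (-0.34, SE 0.20), Kremen1 (-0.23, SE 0.18), Dvl1 (-0.17, SE 0.14) and Nkd2 (-0.27, SE 0.21), none past the threshold. In pairs 2 and 3 with the block, targets were at a median of -0.0218 with 8 of 13 below 0. Receptors were then at -0.11 with 12 of 15 below 0, against 52.0% of all genes.

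On ribosomes, with the block, edgeR called 0 of 6 other antagonists, 0 of 8 ligands, 0 of 15 receptors, 0 of 15 modulators, 0 of 22 transducers and 0 of 13 targets, and the same was true without it. Receptors were at a median of -0.13 with 13 of 15 below 0 and modulators at -0.14 with 13 of 15 below 0. Over all genes the median was 0.000777 and 49.8% lay below 0. Transducers were at -0.0303 and targets at -0.0387. Ptk7 (-0.30, SE 0.091, adjusted p = 0.128), Tpbg (-0.25, SE 0.083, adjusted p = 0.204) and Myc (-0.27, SE 0.092, adjusted p = 0.218) had the smallest p of their lists in edgeR's test, as did Sostdc1 (-0.57, SE 0.22, adjusted p = 0.317) among antagonists. Wnt16 was at -0.11 (SE 0.076) and Apc at 0.18 (SE 0.099).

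Between fractions of control cells, several intracellular transducers were lower on ribosomes. Without the block edgeR called 6 of 22 lower and 0 higher, led by the corepressor Tle2 (-1.87, SE 0.16), Dvl1 (-0.68, SE 0.072), which relays the signal from Frizzled, and Apc (-0.86, SE 0.12), a part of the complex that breaks down beta-catenin. The median of the transducers was -0.21 with 19 of 22 below 0. Over all genes the median was 0.0175, 48.5% lay below 0 and 15% were called lower. Rspo3, a secreted ligand of the Lgr receptors that strengthens Wnt signalling, was called higher (0.41, SE 0.11, adjusted p = 0.0406 in edgeR's test). With the block, where 24.3% of all genes were called higher and 25.9% lower, 10 of 22 transducers were called lower and 0 higher. Among ligands 9 of 9 lay above 0, and 2 were called higher, Wnt4 (0.59, SE 0.13) and Wnt16 (0.24, SE 0.07), a share near that of all genes. Of 6 other antagonists, 2 were called higher, Igfbp4 (0.33, SE 0.078) and Sostdc1 (0.52, SE 0.20), and 0 lower. Receptors were split, with Fzd2 (0.33, SE 0.069) and Ryk (0.31, SE 0.07) called higher and Lrp5 (-0.23, SE 0.08) and Fzd5 (-0.22, SE 0.079) called lower of 15. Of 15 secretion and surface modulators, 4 were called higher, Rspo3 (0.41), Tpbg (0.32), Rspo2 (0.29) and Gpc3 (0.27), and 2 lower, Lgr5 (-0.33) and Gpc6 (-0.25). Of 13 targets, Bambi (0.50, SE 0.11) and Ccn4 (0.22, SE 0.072) were called higher and Lgr5, which is on both lists, lower.

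Genes with a pattern over the 12 libraries most like that of a member were ranked by the root mean square difference of log2 CPM, each centred on its own mean, among 13464 named genes. All 12 libraries share cultures and fractions, so this describes profiles and nothing more. Nearest to Sfrp1 were Serping1 (0.151), Timp3 (0.171) and Mcam (0.174), and among the nearest to Sfrp2 were Clu (0.168) and Zdhhc15 (0.182). Crispld2 (0.138), Id4 (0.191) and Gabrb1 (0.196) were nearest to Sfrp4. For Frzb the nearest were Smpd3 (0.196), Coch (0.223) and Dusp5 (0.228). Dkk3 had the closest neighbours of the members examined, Gpc1 (0.0847), Cd248 (0.0965) and Xxylt1 (0.103). It also had the smallest range of log2 CPM among the members ranked (1.37). Axin2 was followed by Dtna (0.149), Zfp423 (0.202) and Pcnx (0.206). The log2 CPM of Dkk2 ranged over 0.99, under the range of 1 required for this ranking.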

How the data were processed

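RNA-seq gene counts of 12 libraries were analysed as the authors deposited them, whole reads per Ensembl gene, not normalised. Per the submitters' processing notes, FastQC, STAR 2.7.2b, HTSeq 0.11.1 and edgeR were used with GRCm38; annotation release and strand setting: not given in the sources used here. The authors' deposited table of comparisons holds log2 fold changes, log2 CPM, a likelihood ratio score, and p-values with FDR; its name speaks of RUVSeq with 2 factors. No other per-sample column was present (0). Symbols and positions came from GENCODE M21 and matched 55394 of 55487 identifiers, and summary entries were kept out (reads in no gene were 6.94 to 7.73% in total and 2.64 to 3.30% in ribosome-associated libraries). Genes were filtered with filterByExpr, scaled by TMM and tested with edgeR 4.0.16 (R 4.3.3, robust quasi-likelihood fit, SE = |log2 fold change| / square root of F), with Benjamini-Hochberg adjustment at 0.05. DESeq2 1.42.0 and limma voom 3.58.1 were alternatives, and the procedure was tested on simulated data. CPM used TMM scaling over all 12 libraries, and log2 CPM a prior count of 2. Depth was 16789356 to 30571501 gene counts per library.

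Samples were grouped by the labels. Same-numbered samples were treated as pairs in the fits with a replicate block: same-numbered total and ribosome-associated RNA came from 1 suspension, and same-numbered samples deviated together, with correlations of 0.227 to 0.737 over 15574 genes. Members and lists were chosen with earlier results of these data known. All members are described, and of each pathway list the called genes with the smallest p (at most 3 per direction) or, with none called, the gene of smallest p. Other scalings and filters, left-out libraries and subsets of pairs were tried as alternatives, and the ratios of Dkk1 and Wif1 without single libraries were added after seeing the data. A gene of the ranking by likeness is not reported here.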

Additional observations from a re-analysis of the deposited data

How the results depend on the processing

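No alternative made a member pass for the deletion in total RNA or for the interaction. In total RNA the deletion called 0 genes, against 1 with no filter, 3 with DESeq2, 94 in pairs 2 and 3, 6 in pairs 1 and 3 and 3 in pairs 1 and 2 (the last 2 subsets were chosen after seeing the data, and all subsets used the replicate block). On ribosomes it called 0 genes, against 1 with DESeq2, 247 with the replicate block, 14 in pairs 2 and 3, 182 in pairs 1 and 3 and 581 in pairs 1 and 2, and 0 members, against 2 with the block and 3 in pairs 1 and 2. Between fractions of control cells 3745 genes were called, against 7524 with the block, 7445 in pairs 2 and 3, 5911 in pairs 1 and 3, 6679 in pairs 1 and 2, 1646 with all 12 libraries in 1 fit and 1507 to 3251 with a library left out (1507 without total control replicate 1, 2119 without replicate 2 and 2197 without replicate 3). Members called there were 0, against 1 with upper quartile scaling, with no filter and with DESeq2 (Dkk2 each time), 6 with the block, 6 in pairs 2 and 3, 3 in pairs 1 and 3 and 6 in pairs 1 and 2. In HTT-deleted cells 131 genes were called, against 208 with no filter, 86 with a filter of 5 CPM in 3 libraries, 866 with DESeq2, 8333 in pairs 2 and 3, 343 in pairs 1 and 3, 354 in pairs 1 and 2, 1135 with all 12 libraries and 0 to 3008 with a library left out (3008 without total HTT-deleted replicate 1), and members 0, against 6 in pairs 2 and 3. The replicate block gave 97 genes there and called Tle2 lower (-1.69, adjusted p = 0.0403 in edgeR's test). Beside these and the calls given with the block above, it changed no other call of a member or listed gene. The cause of these shifts was not tested.

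Signs turned as follows, on the log2 scale. For the deletion in total RNA, Sfrp2 was at 0.013 with the block and 0.15 in pairs 1 and 3, Sfrp4 at 0.17 in pairs 1 and 3, and Axin2 at -0.0857 with limma voom, -0.0928 with the block, -0.48 in pairs 1 and 3 and -0.18 in pairs 1 and 2. On ribosomes, Sfrp2 was at 0.0184 and Dkk3 at 0.00254 in pairs 2 and 3, and Dkk2 at -0.0528 and Axin2 at -0.0897 in pairs 1 and 3. For the interaction, Sfrp2 was at 0.0317, Frzb at 0.0301 and Axin2 at -0.23 in pairs 2 and 3, and Frzb at 0.00501 with limma voom. Between fractions of HTT-deleted cells Frzb was at -0.00372 in pairs 1 and 3 and Dkk2 at 0.25 in pairs 2 and 3.

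With each library left out, the deletion in total RNA ran from -0.62 to 0.12 for Sfrp1, -0.32 to 0.45 for Sfrp2, -0.48 to 0.35 for Sfrp4, -0.33 to 0.0738 for Dkk3 and -0.63 to 0.50 for Axin2. On ribosomes it ran from -0.77 to 0.0032 for Sfrp1, -0.46 to 0.39 for Sfrp2, -0.76 to 0.0842 for Sfrp4, -0.999 to 0.12 for Wif1, -0.0294 to 0.10 for Dkk2, -0.25 to 0.13 for Dkk3 and -0.28 to 0.37 for Axin2. The interaction ran from -0.57 to 0.38 for Sfrp1, -0.53 to 0.46 for Sfrp2, -0.70 to 0.24 for Sfrp4, -0.35 to 0.44 for Frzb, -0.13 to 0.30 for Dkk3 and -0.37 to 0.82 for Axin2. Between fractions of control cells the range was -0.097 to 0.85 for Sfrp1, -0.25 to 0.74 for Sfrp2 and -0.0371 to 0.89 for Sfrp4. In HTT-deleted cells it was -0.00297 to 0.50 for Sfrp1, -0.17 to 0.49 for Sfrp2, -0.16 to 0.53 for Sfrp4, -0.14 to 0.66 for Frzb, -0.15 to 0.16 for Dkk2 and -0.86 to 0.35 for Axin2. Depth limits Sfrp5, Dkk1 and Wif1, which had 2, 75 and 104 counts over all libraries.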
